A study of Mus musculus with 258 samples.

Results

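The loops described here are the 17 chromatin loops with an anchor near Irf8 or Irf4, out of 6181 loops in the deposited lists of resting and activated mouse B cells. A loop is a pair of genomic positions, its anchors, that Hi-C found ligated together more often than the surrounding positions. A loop was a member when the start of either anchor lay in a window of 1.2 Mb around Irf8 (chromosome 8, 122700000 to 123900000) or of 1.3 Mb around Irf4 (chromosome 13, 30200000 to 31500000), in mm9 coordinates. The Irf8 window held 10 loops, 4 in the resting and 6 in the activated list, and the Irf4 window held 7, all in the activated list. The 2 loci were chosen by the presence, length and contact counts of their loops in these same lists, so those values are given as a description with no test.

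The cells were splenic B cells enriched by negative selection from wild-type C57BL6/J mice 6 to 8 weeks old. The resting group (0 h, 8 Hi-C libraries) received no treatment. The activated group (72 h, 26 Hi-C libraries) received lipopolysaccharide at 50 µg/mL, interleukin 4 at 2.5 ng/mL and an antibody to CD180 at 0.5 µg/mL. Each state is represented by 1 pooled list, so no value has a replicate, and intervals cover the counting of contacts only. The lists hold no expression values, so neither the cell type nor the level of Irf8 or Irf4 could be read from them.

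Irf8 and Irf4 are transcription factors of the interferon regulatory factor family, and both can bind composite DNA sites together with ETS factors such as PU.1. Irf8 acts in early B cell development and in germinal centre B cells, and Irf4 is induced by activating signals and is needed for class switching and plasma cell differentiation. Chromatin loops commonly form where cohesin, as it extrudes DNA, stops at sites bound by CTCF, and loops also join promoters with enhancers.

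Irf8 lies at about 123.26 to 123.28 Mb of chromosome 8 and Irf4 at about 30.84 to 30.86 Mb of chromosome 13, and both are read from the low to the high coordinate. Distances below are from these approximate starts to the start of an anchor, with pixels 5 kb wide. In the RefSeq annotation of GRCm38.p6 the nearest protein-coding genes before Irf8 are Emc8 and Cox4i1, and the nearest after it are Foxf1, Mthfsd, Foxc2 and Foxl1. Irf4 follows Uqcrfs1 and Dusp22 and is followed by Exoc2, Hus1b, Foxq1 and Foxf2. That table uses another build than the lists, so its coordinates were not carried over, and which neighbour lies at which distant anchor was not determined.

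Activated cells had an anchor at the approximate start of each gene, so the 250 bases before each RefSeq start are shown, 5′ to 3′ on the plus strand of GRCm38.p6, at chr8:120736108-120736357 for Irf8 and chr13:30748983-30749232 for Irf4, with TATAAA in capitals.
Irf8: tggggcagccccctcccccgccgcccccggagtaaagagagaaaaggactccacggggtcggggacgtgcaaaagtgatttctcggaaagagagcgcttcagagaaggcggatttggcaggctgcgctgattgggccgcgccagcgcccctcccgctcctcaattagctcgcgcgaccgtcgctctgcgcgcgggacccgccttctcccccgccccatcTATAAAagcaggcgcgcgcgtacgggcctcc
Irf4: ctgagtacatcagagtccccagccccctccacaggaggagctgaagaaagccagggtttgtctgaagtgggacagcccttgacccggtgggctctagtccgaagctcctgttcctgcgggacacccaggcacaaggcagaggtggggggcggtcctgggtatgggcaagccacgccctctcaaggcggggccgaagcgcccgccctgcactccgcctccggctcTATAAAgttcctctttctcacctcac

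Both sequences hold TATAAA, which begins 31 bases before the start of Irf8 and 26 bases before that of Irf4. On either strand, 12.4% of the 32851 RefSeq windows of this length hold it. Each also holds 2 copies of GGGCGG on either strand, a motif in 32.7% of the windows, and 67.2% of the Irf8 bases and 63.6% of the Irf4 bases are G or C, against a median of 52.4%. The repeat bound by interferon regulatory factors (GAAA, 2 bases of any kind, GAAA) had no match in these 250 bases on either strand, and 2.98% of all windows hold it. The same was true of the composite with an ETS core (GGAA, 2 bases, GAAA), held by 2.30%, and of a core of the CTCF motif (CC, 3 bases, AGG, 1 base, GGC), held by 2.93%. The ETS core GGAA, which is part of the composite, occurs 1 time in the Irf8 and 2 times in the Irf4 sequence, and in 93.5% of the windows. Irf8 has 2 starts in the table, and the one at the lower coordinate is shown.

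At Irf8, a loop that encloses the whole gene was called in both states and was stronger in activated cells, while the short loop that ends at the gene lay on opposite sides of it in the 2 states. In resting cells the short loop joined the body of Irf8 to a position behind it, and in activated cells a position before the gene was joined to its approximate start. Their anchors at the gene were 10 kb apart. Each end of these short loops had an anchor of the other list within 20 kb, the largest shift allowed in matching. A pair of short loops further upstream was called in resting cells alone, and 3 longer loops, of 255 to 445 kb, in activated cells alone. Loops not called in the other state made up 3 of the 4 resting loops at Irf8, against 34.8% of the whole resting list, and 5 of the 6 activated loops, against 71.7% of the whole activated list. A loop missing from a list was not called, which does not show that the contact was absent.

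**Figure D1:**
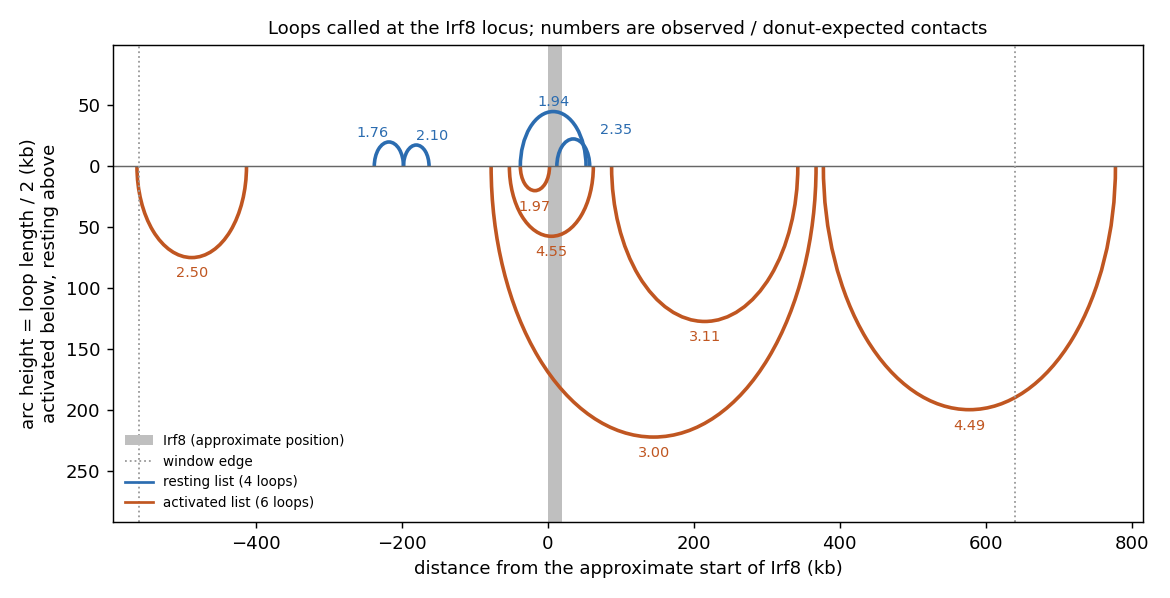
Loops at the Irf8 locus as arcs, by distance from the approximate start of Irf8 in kb, with the 4 resting loops above and the 6 activated loops below the line. Arc height is the loop length divided by 2, each number is the observed over donut-expected contacts, the grey band is the gene, and dotted lines mark the window. The enclosing loop is labelled 1.94 above and 4.55 below the line. The short loop at the gene lies to its right above the line and to its left below it.

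In resting cells the enclosing loop ran from 123220001 to 123315000, from 40 kb before to 50 kb after the start of Irf8, and had 78 observed contacts. The donut-expected count, which is the contact count predicted from a ring of pixels around the loop, was 40.2, so the loop stood at 1.94 times its surroundings (exact Poisson interval 1.54 to 2.42). This ratio is the strength of a loop in what follows. In activated cells the enclosing loop ran from 123205001 to 123325000, from 55 kb before to 60 kb after the start, with 156 observed over 34.3 expected contacts and a strength of 4.55 (3.87 to 5.33). As a description of these 2 maps, the log2 ratio of strengths was 1.23, and the counting of contacts gives it a standard error of 0.20, which holds no spread between cultures or mice. Among all 1212 loops paired between the lists, 5 (0.413%) were over 2-fold stronger in activated cells, and this was one of them, at rank 4. The 2 loops counted as one because anchors were widened by 10 kb before matching, and with anchors not widened they were not matched. The rise was seen against each of the 4 local backgrounds, with log2 ratios of 0.90 for the lower left, 0.79 for the horizontal and 1.07 for the vertical one. It was thus over 2-fold with the donut and vertical backgrounds and under 2-fold with the lower left and horizontal ones. With the highest of the 4 expected counts it was 0.89, also under 2-fold. The rank and the count of pairs over 2-fold are by the donut ratio alone.

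The change in strength had a part in the observed and a part in the expected count. Observed contacts were 2.00 times as many in the activated map (exact interval 1.51 to 2.66). Over all paired loops, donut-expected counts were 1.55 times as high in the activated map by the median, and this ratio serves as the estimate of its relative depth. Relative to that depth, observed contacts of the enclosing loop were 1.29 times as many (0.976 to 1.71), an interval that includes 1. The donut-expected count, in contrast, was 0.853 times that of resting cells before any correction for depth. Of the 1212 pairs, 37 (3.05%) had a lower ratio. Relative to depth the donut-expected count was 0.55 times as high. Of the other backgrounds, before correction for depth, the vertical one also fell, from 48.5 to 46.2 expected contacts. The lower left one rose from 37.1 to 39.9 and the horizontal one from 45.3 to 52.4, both by less than the depth ratio of 1.55.

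The best pixel of the enclosing loop was not the same in the 2 states, and the part of this shift in the change of donut-expected count was not tested. The activated pixel lay 15 kb further out on the left and 10 kb further out on the right, which made the loop 115 kb long instead of 90 kb. The centres of the merged pixels were closer, 5.25 and 2.75 kb apart, and by these centres the loop measured 112 kb in resting and 120 kb in activated cells. Many pixels had been merged into it, 20 in resting and 28 in activated cells, against whole-list medians of 3 and 4. Expected counts decrease with distance, so each was set beside loops of its own list within 20% of its length. In resting cells the expected count was 1.71 times the median of 302 such loops, with 97.0% of them lower, and in activated cells it was 1.26 times the median of 790, with 74.1% lower. By strength, 1.66% of the like-length resting loops and 97.3% of the like-length activated loops were weaker than the enclosing loop.

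The short loop at Irf8 in resting cells ran from 123270001 to 123320000. Its left anchor lay 10 kb past the gene's start, within the gene, and its right anchor 55 kb past the start. It had 91 observed over 38.7 expected contacts, a strength of 2.35 (1.89 to 2.89), and the authors' highest q-value over the 4 backgrounds was 0.0166, so a limit of 0.01 removes it. This right anchor was 5 kb from the right anchor of the enclosing loop of both states. No activated loop was matched to it.

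In activated cells the short loop ran instead from 123220001 to 123265000, from 40 kb before the gene to its approximate start. It had 163 observed over 82.6 expected contacts, the highest observed count of all 17 loops, and a strength of 1.97 (1.68 to 2.30). Its left anchor is the very pixel that formed the left anchor of the resting enclosing loop. Its strength was low for the list, with 4.19% of activated loops weaker, while its observed count was high, with 96.6% of them lower. The expected count around it was also high, 1.64 times the median of 472 activated loops of like length. The short loops of the 2 states were 45 and 40 kb long and lay on either side of the front part of the gene, with no pixel in common.

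Upstream of Irf8, resting cells had 2 adjacent loops that met at the same anchor. The first ran from 123020001 to 123065000, 240 to 200 kb before the gene, with 79 observed over 44.9 expected contacts and a strength of 1.76 (1.39 to 2.19). It lay just above the lowest strength in the resting list, and 0.161% of that list was weaker. The second ran from 123060001 to 123100000, 200 to 165 kb before the gene, with 70 observed over 33.3 expected contacts and a strength of 2.10 (1.64 to 2.65). At 35 kb it had the shortest length found in the list and consisted of a single pixel. None of the anchors of this pair had an activated anchor within 20 kb, and the nearest one was 85 kb away.

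The 3 loops that reached more than 85 kb past the start of Irf8 were called in activated cells alone. The first ran from 123345001 to 123605000, 85 to 340 kb past the start of the gene, with 59 observed over 18.9 expected contacts and a strength of 3.11 (2.37 to 4.02). Another enclosed Irf8 in a larger interval, from 123180001 to 123630000, 80 kb before to 365 kb past the start. It had 31 observed over 10.3 expected contacts, a strength of 3.00 (2.04 to 4.26) and a highest q-value of 0.0988, near the largest in the list. The third ran from 123635001 to 124040000, 375 to 775 kb past the start, with 49 observed over 10.9 expected contacts and a strength of 4.49 (3.32 to 5.94). Their anchors between 340 and 375 kb past the start lay within 35 kb of each other, and the nearest resting anchor was 285 to 320 kb away. The remaining activated loop lay far upstream, from 122695001 to 122850000, 565 to 415 kb before the gene, at a strength of 2.50 (1.92 to 3.21) from 62 contacts.

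By length, the 4 resting loops at Irf8 ranged from 35 to 90 kb with a median of 42.5 kb, and the 6 activated loops from 40 to 445 kb with a median of 202.5 kb. The whole lists had medians of 90 and 140 kb. The median at Irf8 was thus below that of the list in resting cells and above it in activated cells, although the activated loops of 40 and 115 kb at Irf8 were shorter than 140 kb. Of the 8 resting loop ends at Irf8, 4 had an activated anchor within 20 kb, and these were the ends of the enclosing and the short loop. The same held for 4 of the 12 activated ends.

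At Irf4, no loop was called in resting cells and 7 were called in activated cells, including 2 that ended at the gene and 2 that enclosed it. All 7 were absent from the resting list, as were 71.7% of activated loops in general. The last resting anchor before Irf4 began at 30170001, 670 kb before its start, and the next one at 32995001, 2155 kb past it. Of the 3711 distances between neighbouring resting anchors, 5.93% were longer than this stretch of 2825 kb without a resting anchor. The distances include those between the ends of a single loop. The share counts distances and not bases, so it does not say how often a gene lies in such a stretch. Within the 2825 kb at Irf4 lay both ends of 9 activated loops, among them the 7 described here.

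**Figure D2:**
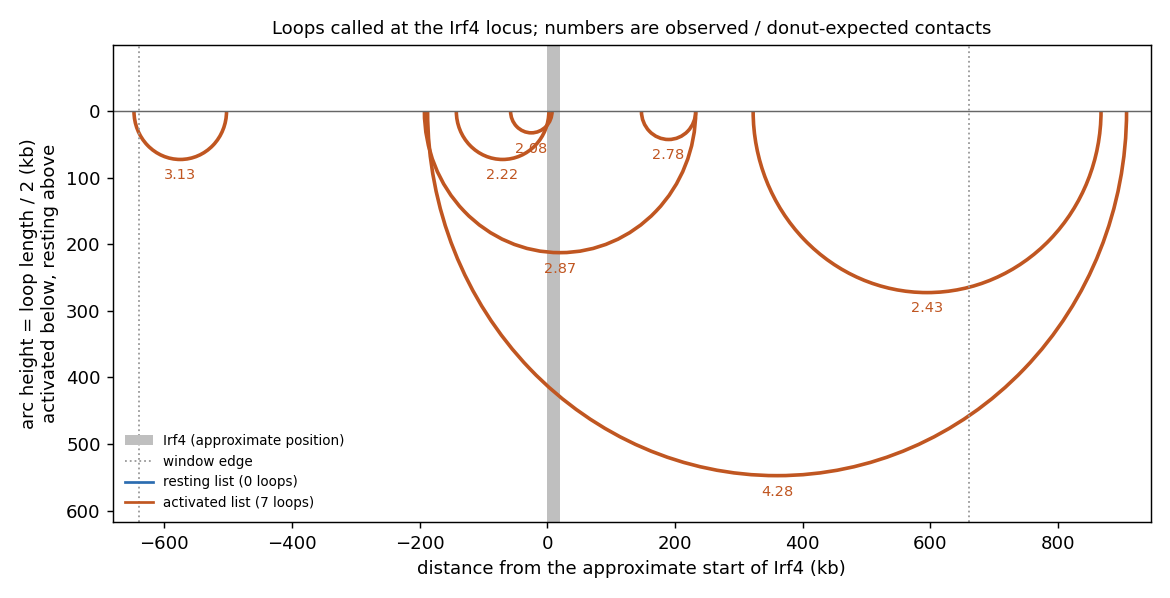
Loops at the Irf4 locus as arcs, by distance from the approximate start of Irf4 in kb, drawn as for Irf8, with activated loops below the line. Nothing is drawn above the line because the resting list has 0 loops there. Both loops that end at the gene come from its left, at strengths of 2.22 and 2.08, and both larger loops that enclose it start about 190 kb before it.

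Both loops that ended at Irf4 joined it to positions before the gene. The shorter ran from 30780001 to 30850000, with anchors 60 kb before and 5 kb past the approximate start. It had 103 observed over 49.4 expected contacts and a strength of 2.08 (1.70 to 2.53). The longer ran from 30695001 to 30845000, with anchors 145 kb before the gene and at its approximate start, and had 96 observed over 43.3 expected contacts and a strength of 2.22 (1.80 to 2.71). Their right anchors were neighbouring pixels. The authors' highest q-values were 0.000296 for the shorter loop, which was a single pixel, and 0.00432 for the longer, into which 5 pixels had been merged.

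A larger pair of loops enclosed Irf4 and began at neighbouring pixels on its left. One ran from 30645001 to 31075000, 195 kb before to 230 kb past the start of the gene, with 47 observed over 16.4 expected contacts and a strength of 2.87 (2.11 to 3.81). The other ran from 30650001 to 31750000, 190 kb before to 905 kb past the start. At 1095 kb it was the longest of the 17 loops, longer than 98.9% of the activated list, and with 29 observed over 6.78 expected contacts it was the strongest at Irf4 at 4.28 (2.86 to 6.14). It rested on the fewest contacts of all 17.

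The other Irf4 loops did not touch the gene. One shared the right anchor of the smaller enclosing loop and ran from 30985001 to 31075000, 145 to 230 kb past the start, with 73 observed contacts and a strength of 2.78 (2.18 to 3.49). The next ran from 31160001 to 31710000, 320 to 865 kb past the start, with 36 contacts and a strength of 2.43 (1.70 to 3.37). Its highest q-value, 0.0998, was the largest of the activated list, and of 231 activated loops of like length none was weaker. The last ran from 30190001 to 30340000, 650 to 505 kb before the gene, with 43 contacts and a strength of 3.13 (2.27 to 4.22). Its left end, 20 kb from a resting anchor, was the one end of 14 with a resting anchor that near. The 14 ends of the Irf4 loops merged into 11 anchors, and 3 of these, at the gene, 190 kb before it and 230 kb past it, carried 2 loops each.

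**Figure D3:**
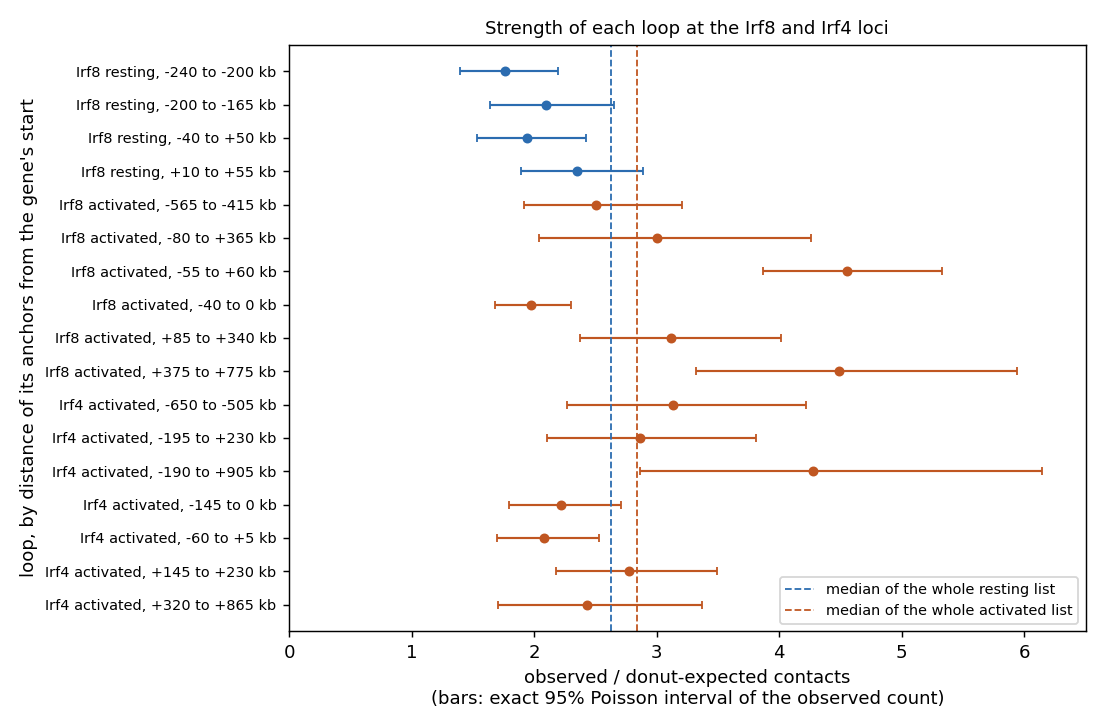
Strength of each of the 17 loops as observed over donut-expected contacts, with exact 95% Poisson intervals of the observed count, in blue for resting and orange for activated loops. Dashed lines mark whole-list medians of 2.63 (resting) and 2.84 (activated). All 4 resting points lie left of their median, and the 3 activated loops that end at a gene lie left of theirs. These medians cover loops of all lengths. Beside resting loops of like length, 3 of the 4 were weaker than the median, among them the second upstream loop at 2.10 against 2.11. The resting short loop at the gene was stronger, at 2.35 against 2.29.

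Across both genes, the loops that ended at the gene in activated cells had observed counts above the list median and expected counts above the median for their length. Observed counts were not compared with those of loops of like length. There were 3 of them, 1 at Irf8 and 2 at Irf4, and their strengths of 1.97, 2.22 and 2.08 all lay below the whole-list median of 2.84 and below the medians of loops of like length, which were 2.10, 2.90 and 2.34. Their observed counts of 163, 96 and 103 were exceeded, among the 13 activated loops here, by no others except the 156 of the smaller loop enclosing Irf8, and all lay above the list median of 67. Their expected counts were 1.64, 1.84 and 1.22 times the median for like length. Lower expected counts were found in 94.5% of the loops of like length for the Irf8 loop, and in 96.8% and 72.2% for the longer and the shorter Irf4 loop. Of the 4 activated loops that enclosed a gene, 3 had an expected count above and 3 a strength below the median for their length. The expected count of the 1095 kb loop was barely above, at 1.02 times the median. The smaller loop enclosing Irf8 had more contacts than the list median, while the others, with 31, 47 and 29, had fewer. Of the 6 activated loops apart from both genes, 3 had an expected count above the median for their length and 3 below.

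**Figure D4:**
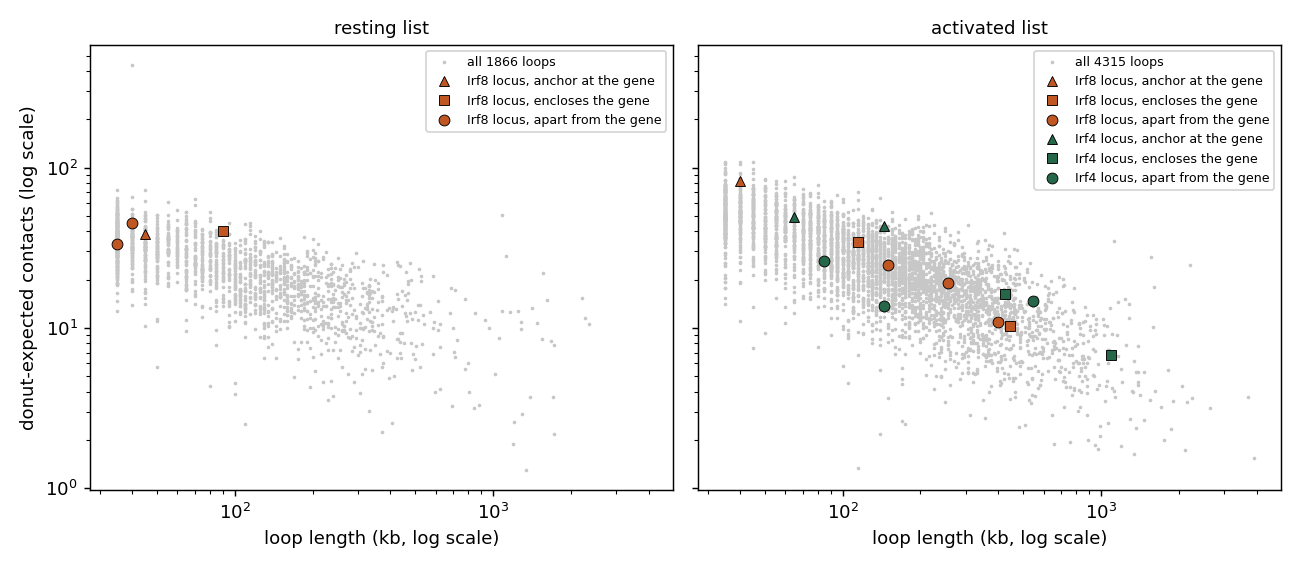
Donut-expected contacts against loop length in kb, both on log scales, for all 1866 resting (left) and 4315 activated (right) loops in grey, with the Irf8 loops in orange and the Irf4 loops in green. Triangles mark loops with an anchor at the gene, squares loops that enclose it and circles other members. The triangles on the right lie in the upper part of the grey points at 40, 65 and 145 kb.

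The activated map was deeper and had more loops, at these genes as over the whole genome, and the part of depth in this was not tested directly. The counts of activated loops were divided by 1.55 and held to the lowest ratios and highest Poisson p-values found in the resting list. These limits are the loosest values of any loop in that list, and loops were not called anew. Meeting them therefore does not show that a loop would be called at the depth of the resting map. Of the 13 activated loops, 11 met these limits, 5 at Irf8 and 6 at Irf4, against 90.7% of the whole activated list and 88.3% of its activated-only loops. The 2 that did not were the enclosing loop of 445 kb at Irf8 and the loop of 545 kb at Irf4. The latter call depends on the depth ratio, since with a depth ratio for each class of length, 1.24 for the class of the 545 kb loop, all 7 Irf4 loops met the limits. With a Poisson p limit of 1e-05 in every background as well, 4 loops were left at Irf8 and 1 at Irf4, the loop from 145 to 230 kb past the gene, against 49.8% of the whole activated list. Thus neither of the loops that end at Irf4 passed this stricter limit at lowered depth, whereas at Irf8 the short loop and the smaller enclosing loop did. Without any change of depth, this p limit kept 5 activated loops at Irf8, 4 at Irf4 and 85.6% of the activated list. Of the loops that end at Irf4, it kept the one of 65 kb and already removed the one of 145 kb. Under the same p limit without any change of depth the resting list kept 3 of its 4 Irf8 loops and 79.6% of all its loops, and lost the enclosing one.

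As a description of the whole genome, 1306 fixed windows of 1.3 Mb held at least 1 loop in either list, and 209 of them had at least 7 activated loops. In 7 of these 209 there was no resting loop (3.35%), which is 0.536% of the 1306. The fixed windows were laid end to end from the start of each chromosome, so none is the window set around Irf4 above. The fixed window that holds Irf4 also holds a resting loop and is not among the 7. The absence of resting loops around Irf4 thus depends on where the edges are set. A resting loop from 29950001 to 30175000 ended 30 kb outside the window set around Irf4, at a strength of 3.56 from 35 contacts. That loop was also called in activated cells, from 29945001 to 30180000, at 4.78 from 58 contacts. On the far side the nearest activated loop began 385 kb beyond the window. At Irf8 the nearest loops outside were 105 kb before and 165 kb after the window in activated cells, and 335 and 475 kb away in resting cells. No loop of either list spanned a whole window.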

How the data were processed

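Hi-C loop lists were analysed for resting (8 libraries) and 72 h activated (26 libraries) B cells, and 224 further libraries were not used here. BWA, Juicer and mm9 are named in the submitters' processing notes, while the loop caller was not given in the sources used here, nor were its settings. The activated list names no time and was taken as 72 h, the one map of activated cells described as free of deletion or inhibitor. Per the file headers, each loop has a contact count, expected counts from 4 backgrounds, q-values and merged pixels. The deposited contact counts were not normalized, and the deposited expected counts were used unrounded. Observed counts ranged from 19 to 999 (resting, median 61) and from 14 to 932 (activated, median 67), and library totals were not used here. The authors' q-values reached 0.0942 and 0.0998.

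Coordinates are 1-based. Loops were shared when both anchors, widened by 10 kb, overlapped by 1 bp or more, and were paired nearest first, which gave 1212 pairs. Length is the distance between anchor midpoints. Intervals are exact, at 95% (Poisson, or conditional binomial for ratios of counts, with expected counts fixed), and cover counting error only. Every member is reported. The members, windows and motifs were chosen with earlier results of these data known. Matching was tested on simulated data. Python 3.11.15, pandas 2.3.3 and scipy 1.17.1 were used.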

Additional observations from a re-analysis of the deposited data

How the results depend on the processing

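Of 53 alternatives for 13 results, 46 stayed within 1.5 times a count, within the spread of lengths or within the counting interval. The other 7 did not. The log2 strength ratio was the only result that could change sign, and it stayed positive. With all 4 q-values at most 0.01, 3 Irf8 and 4 Irf4 loops were called in the activated list alone (5 and 7 in the full lists), and 4 Irf4 loops were left in all. With both anchor starts inside the window 4 Irf4 loops were left, because the other 3 reach beyond it. With the window widened by 200 kb, the Irf4 window gained 1 resting loop. With activated counts divided by the depth ratio and a common Poisson p limit of 1e-05, 1 Irf4 loop was left. The log2 strength ratio of the enclosing Irf8 loop was 0.79 with the horizontal background, against 1.23 with the donut. The cause was not tested for the changes with background and q-value. Pairing by the centres of merged pixels, chosen after the data were seen, left the Irf8 pair at 1.23, and with anchors not widened the pair was not matched. No paired analysis was possible because each state has 1 pooled list. The 5 loops of at least 400 kb rest on 29 to 49 contacts, so their strengths have wide counting intervals.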
